A study of Mus musculus with 8 samples.

Results

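The genes described here are 42 genes of the cell division machinery: the cyclins and their kinases (CDKs), CDK inhibitors, the retinoblastoma and E2F families, the MYC family, the loaders and helicase of DNA replication, and kinases and checkpoint genes of mitosis. They were chosen by name, with earlier results of these data known. All 42 were found among 21883 protein-coding genes in RefSeq's annotation of GRCm38.p6 (mm10) on chromosomes 1 to 19, X and Y. For each gene, the bases of the gene span covered by H3K79me2 peaks were counted in a control list and in a list from cells treated with EPZ5676. H3K79me2 is dimethylated lysine 79 of histone H3, a mark that the methyltransferase DOT1L places and that EPZ5676, a DOT1L inhibitor, is meant to lower. The mark was mapped by chromatin immunoprecipitation and sequencing.

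Spermatogonial stem cells, the self-renewing germ cells of the testis from which sperm arise, were grown from mice. Per the labels' protocols the mice were of the strain B6.129S7-Gt(ROSA)26Sor/J, which carries a LacZ reporter in all tissues, and 7 days old, and the cells were kept for 2 months on SNL 76/7 feeder cells with GDNF (10 ng/mL) and FGF2 (0.5 ng/mL). Control cultures received vehicle and the other cultures 2 µM EPZ5676, both for 7 days. The protocols give DMSO as the vehicle and the control samples' short descriptions give ethanol; the difference was not settled here. The series held 8 samples, namely 2 H3K79me2 samples and 2 inputs per condition, but 1 peak list per condition. No value below therefore has a replicate error, no test between conditions was made, and the read depth is unknown.

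As background, D-type cyclins with CDK4 or CDK6, and then E-type cyclins with CDK2, phosphorylate the retinoblastoma protein and its relatives in the G1 phase, which frees E2F factors to switch on the genes of DNA synthesis. ORC, CDC6 and CDT1 load the MCM helicase onto origins before S phase begins. Cyclin B with CDK1, the Aurora kinases and PLK1 then drive mitosis, and BUB1 and BUBR1 hold back chromosome separation until the spindle is attached. H3K79me2 is known to lie over the first part of transcribed genes. For the comparison, 20 genes were classed as G1, 12 as S and 9 as mitotic, and Cdk7, whose kinase activates other CDKs throughout the cycle, was left without a phase.

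The promoters of these genes are shown first because the control peaks described below mostly began just after the start of transcription, so that most of these stretches lie directly before the marked region. The Mycn stretch differs and lies wholly inside a control peak. At Mcm6 the peak began farther in, 416 bp after the start. In the 3000 bp before the start, control peaks outside the stretches shown covered 2568 bp at Aurka and 1348 bp at E2f3. Each stretch runs from 250 bases before the start to the base before it, 5′ to 3′ on the gene's own strand, from RefSeq GRCm38.p6. In the G1 and S promoters, capitals mark matches to an E2F motif, spelled TTTGGCGC, TTTCCCGC, TTTGCCGC or TTTCGCGC on either strand. In the mitotic promoters they mark the CHR element, spelled TTTGAA or TTCGAA, and the CCAAT box, on either strand. Where 2 matches overlap, the capitals run together.
Mycn (G1; chr12:12941837-12942086, minus strand): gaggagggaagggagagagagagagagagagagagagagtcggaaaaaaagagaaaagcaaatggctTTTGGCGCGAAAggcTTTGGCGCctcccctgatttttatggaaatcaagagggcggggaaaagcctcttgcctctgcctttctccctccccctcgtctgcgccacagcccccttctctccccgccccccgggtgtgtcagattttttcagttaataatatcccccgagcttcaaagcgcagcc
E2f3 (G1; chr13:29986064-29986313, minus strand): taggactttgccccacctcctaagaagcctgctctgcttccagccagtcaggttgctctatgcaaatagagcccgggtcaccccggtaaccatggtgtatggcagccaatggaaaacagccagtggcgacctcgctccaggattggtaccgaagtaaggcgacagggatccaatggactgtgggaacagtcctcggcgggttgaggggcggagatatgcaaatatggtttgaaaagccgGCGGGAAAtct
Mcm6 (S; chr1:128359706-128359955, minus strand): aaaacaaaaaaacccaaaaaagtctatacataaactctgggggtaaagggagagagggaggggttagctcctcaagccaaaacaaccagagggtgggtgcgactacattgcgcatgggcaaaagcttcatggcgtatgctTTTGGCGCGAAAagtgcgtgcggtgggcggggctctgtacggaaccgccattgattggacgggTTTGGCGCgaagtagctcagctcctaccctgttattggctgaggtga
Mcm5 (S; chr8:75109259-75109508, plus strand): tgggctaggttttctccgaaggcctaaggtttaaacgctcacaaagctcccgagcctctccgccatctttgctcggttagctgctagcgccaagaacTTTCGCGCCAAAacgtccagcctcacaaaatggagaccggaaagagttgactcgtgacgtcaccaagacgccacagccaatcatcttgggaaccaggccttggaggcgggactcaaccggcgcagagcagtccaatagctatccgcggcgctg
Cdk1 (mitotic; chr10:69352913-69353162, minus strand): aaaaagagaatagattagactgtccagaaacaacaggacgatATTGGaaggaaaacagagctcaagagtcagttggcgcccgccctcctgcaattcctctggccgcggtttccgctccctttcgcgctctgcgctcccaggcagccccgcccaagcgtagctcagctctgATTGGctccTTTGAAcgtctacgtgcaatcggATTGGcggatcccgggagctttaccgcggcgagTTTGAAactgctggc
Mki67 (mitotic; chr7:135716380-135716629, minus strand): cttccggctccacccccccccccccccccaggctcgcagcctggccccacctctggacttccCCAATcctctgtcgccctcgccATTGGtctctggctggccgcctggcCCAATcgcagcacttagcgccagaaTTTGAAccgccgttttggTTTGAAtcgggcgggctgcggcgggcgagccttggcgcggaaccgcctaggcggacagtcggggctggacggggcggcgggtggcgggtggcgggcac
Aurka (mitotic; chr2:172370571-172370820, minus strand): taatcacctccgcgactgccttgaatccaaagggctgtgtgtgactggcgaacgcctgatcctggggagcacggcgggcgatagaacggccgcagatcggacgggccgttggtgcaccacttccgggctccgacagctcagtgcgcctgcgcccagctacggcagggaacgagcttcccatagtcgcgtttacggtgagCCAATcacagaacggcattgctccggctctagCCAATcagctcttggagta

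These letters were counted by phase class, without a test between classes. A start was matched for 34 of the 42 genes, with 40 windows of 250 bases before to 50 bases after a start, since some genes have several. An E2F match was found in 7 of 11 windows of S genes, in 6 of 20 of G1 genes and in 1 of 8 of mitotic genes, against 2.86% of the 21262 windows of protein-coding genes. The genes with an E2F match were Cdc6, Cdt1, Mcm3, Mcm5, Mcm6, Mcm7 and Orc1 among S genes and Cdk2, Cdkn2a, E2f2, E2f3, Mycn and Rbl1 among G1 genes. Cdk1 was the mitotic gene with one. A CHR element and a CCAAT box stood together in 7 of 8 mitotic windows (all but Ccnb1, which held 2 CCAAT boxes and no CHR), against 2 of 20 G1 windows, 2 of 11 S windows and 7.11% of protein-coding windows. At the most upstream start, E2f3, Mcm2 and Mcm7 were the G1 and S genes with both. In Cdk1 the CHR matches lay from 71 to 66 and from 15 to 10 bases before the start, and in Aurka the CHR match lay 32 to 37 bases after it, outside the stretch shown. In 1 case matches of different motifs shared bases. A match is a string of letters and no measurement of binding.

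In the control list, 41 of the 42 genes carried H3K79me2, and most carried it as a single peak. The background over all protein-coding genes was 52.7%. Of genes with a span under 10 kb, 15 of the 16 described here and 32.7% of all were marked. The median control-marked gene of the 41 was covered over 3965 bp, with a median of 5857 bp over all 11525 control-marked protein-coding genes. As a share of the span the medians were 37.8% and 32.6%. A single control peak marked 25 of the 41 (background 42.7% of control-marked genes), and 16 of the 41 were covered over more than 50% of the span (background 30.1%). The authors' fold enrichment of the strongest peak touching each gene had a median of 3.57 and ran from 2.07 at Cdkn2c to 5.82 at Mki67, with a median of 3.33 over all control-marked genes.

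After EPZ5676, 6 of the 41 kept a listed peak: E2f3 and Cdk6 among G1 genes, Orc1 among S genes, and Cdk1, Mki67 and Aurka among mitotic genes. Over all control-marked protein-coding genes 19.3% also had an EPZ5676 peak, and over all protein-coding genes 12.3% had one. Summed over the 42 genes, covered length came to 428522 bp without and 5282 bp with EPZ5676, a ratio of 81.1. Summed in the same way over all protein-coding genes, it came to 162997041 bp without and 3697573 bp with EPZ5676. Covered length depends on how much was called in each list, and the whole lists covered 168.9 and 4.64 Mb. The lists also reach down to unlike −log10 p, 2.36 in the control and 4.03 with EPZ5676. With the control list held to the EPZ5676 floor, the ratio over the 42 genes was 69.3. All 10 EPZ5676 peaks on these genes had a −log10 q under 2, and with that floor on both lists no gene of the 42 had an EPZ5676 peak. A missing entry in the list means that no peak was called, at a depth that is unknown here, and not that the mark was absent.

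**Figure D1:**
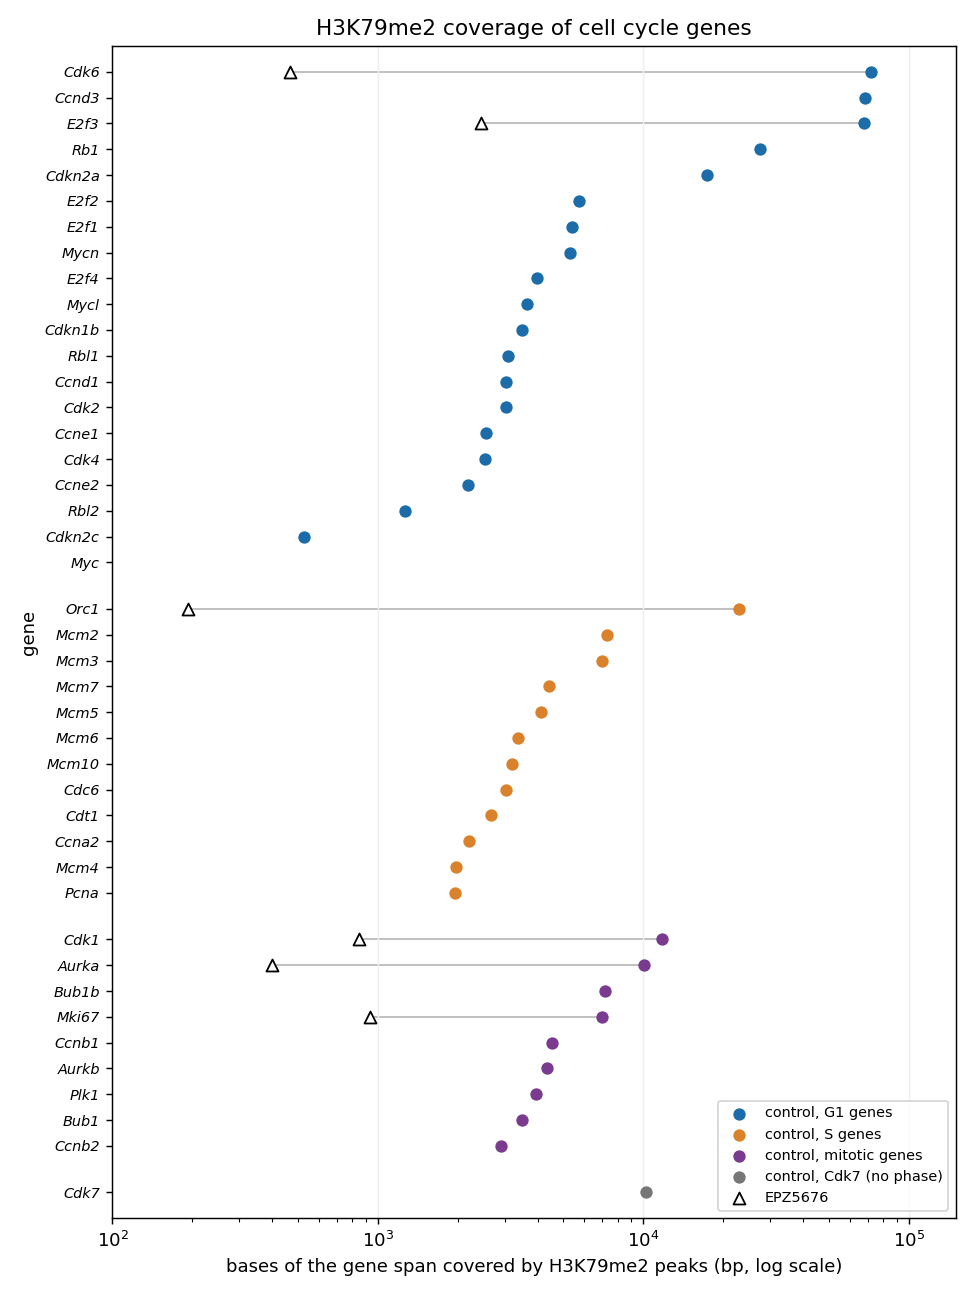
Bases of each gene span (bp, log scale) covered by H3K79me2 peaks in the control list (filled circles, coloured by phase class) and in the EPZ5676 list (open triangles), 1 list per condition. Myc has no symbol because neither list had a peak on it; the 6 genes with a triangle lie between 193 bp (Orc1) and 2446 bp (E2f3) after EPZ5676.

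Among the D-type cyclins and their kinases, the paralogs differed widely in control coverage. Ccnd3, which encodes cyclin D3 (chromosome 17, 47505051 to 47599689), had 9 control peaks over 68412 bp, or 72.3% of its span. Ccnd1, the cyclin D1 gene (chromosome 7, 144929931 to 144939831), had 3 peaks over 3051 bp, or 30.8%. The CDK pair showed the same contrast in length: Cdk6 (chromosome 5, 3341004 to 3531008) was covered over 71863 bp and Cdk4 (chromosome 10, 127063535 to 127067288) over 2523 bp. As a share of the span the order turned, with 37.8% for Cdk6 and 67.2% for Cdk4. Coverage of Cdk6 was broken into 37 peaks, none above 2.95-fold, in a span of 190005 bp. Of these 4 genes, Cdk6 alone had EPZ5676 peaks, 204 and 261 bp wide.

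The E-type cyclin genes and Cdk2, which act at the passage from G1 to S, had short control coverage and no EPZ5676 peak. Ccne1 was covered over 2546 bp by 1 peak of 2.49-fold, and Ccne2 over 2189 bp by 3 peaks. The strongest of these, of 4.06-fold, had 116 of its 11124 bp on Ccne2, and the others reached 2.73-fold. Cdk2 had 3041 bp, all of it inside the annotated span of Pmel, so it cannot be assigned to Cdk2 alone. Cdk7 was covered over 10233 bp by 2 peaks of up to 5.06-fold, with no EPZ5676 peak.

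The CDK inhibitor genes ranged from nearly full to marginal coverage. Cdkn2a, which encodes p16INK4a and p19ARF from separate starts (chromosome 4, 89274473 to 89294619), lay under 1 control peak of 17442 bp, or 86.6% of its span. That peak began 333 bp after the upstream start and held the downstream start, 12427 bp further in. Cdkn1b, the p27KIP1 gene, had 3505 bp (68.4%). Cdkn2c, the p18INK4c gene, had 527 bp (8.96%), in a peak of 2.07-fold that began 5053 bp from the start and was lost with a −log10 q of at least 2. None of the 3 inhibitor genes had an EPZ5676 peak.

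The retinoblastoma family, whose spans are over 50 kb, was covered over 20.7% of the span at most. Rb1 itself (chromosome 14, 73192858 to 73325951) had 6 control peaks over 27491 bp, or 20.7%. Rbl1, the p107 gene, had 3085 bp (5.26%), and Rbl2, the p130 gene, had 1268 bp (2.36%), the lowest share among the 41 marked genes. At Rbl2 the peak began 1389 bp after the start and at Rbl1 the first began 725 bp after it, where the median of the 34 genes with a start was 159 bp. No EPZ5676 peak was listed on any of the 3.

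Among the E2F genes, E2f3 stood apart in length, enrichment and the peaks left after treatment. E2f3, an activating E2F (chromosome 13, 29906575 to 29986064), had 3 control peaks over 67924 bp, or 85.4% of its span, with a highest fold of 5.75. E2f2 had 5717 bp (24.0%), E2f1 had 5387 bp (51.3%) and E2f4, which mostly acts in repression, had 3965 bp (51.4%). Highest folds were 4.66 for E2f1, 3.45 for E2f4 and 2.61 for E2f2. E2f3 kept 3 EPZ5676 peaks over 2446 bp, the longest EPZ5676 coverage of the 42 genes, and the other E2F genes had none.

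The MYC genes, which encode growth-promoting transcription factors, differed from one another as far as the list allows. Mycn (chromosome 12, 12936093 to 12941836) was covered over 5299 bp, or 92.3% of its span, the highest share of the 42, by a peak of 4.88-fold that began 755 bp before its start. Mycl had 3660 bp (53.0%) in a peak of 2.37-fold, which was lost when the control list was held to the lowest −log10 p of the EPZ5676 list. Myc had no peak in either list. The nearest control peak lay 383 bp past the Myc span and was 482 bp wide with a fold of 2.11, and on the other side none was listed within 2331202 bp. No EPZ5676 peak was listed on the MYC genes.

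All 12 S genes were marked in the control, each with a highest fold of at least 3.24, and Orc1 alone had an EPZ5676 peak. The backgrounds were 52.7% of protein-coding genes marked and 19.3% of control-marked genes with an EPZ5676 peak. The 6 subunits of the MCM helicase carried between 1967 and 7293 bp. Mcm2 had 7293 bp (47.6% of the span), Mcm3 6993 bp (40.3%), Mcm7 4394 bp (58.4%), Mcm5 4116 bp (21.7%), Mcm6 3384 bp (12.0%) and Mcm4 1967 bp (14.6%). Highest folds of the 6 lay between 3.56 (Mcm7) and 4.63 (Mcm6). Mcm6 had the highest fold of the 6 and the lowest share.

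Among the loaders and other replication genes, Orc1 had the longest coverage. Orc1, of the origin recognition complex (chromosome 4, 108575705 to 108616030), was covered over 22953 bp (56.9%) in control cells, of which 19788 bp lay outside the overlapping gene Prpf38a. With EPZ5676, 193 bp were covered. Cdc6 had 3051 bp (18.8%) and Cdt1 2678 bp (52.3%). Mcm10, which helps to start the helicase, had 3195 bp (14.5%). Pcna, the gene of the sliding clamp of DNA polymerase (chromosome 2, 132249286 to 132253180), had the shortest coverage of the S genes, 1946 bp, which was still 50.0% of its short span. Ccna2, the cyclin A2 gene, had 2211 bp (27.0%).

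All 9 mitotic genes were marked in the control (background 52.7%), and 3 of them had an EPZ5676 peak (background 19.3% of control-marked genes). Cdk1, the mitotic CDK (chromosome 10, 69335146 to 69352912), had 11775 bp (66.3%) with a highest fold of 5.23. Its cyclin partners had less, with 4529 bp (58.5%) at Ccnb1 and 2907 bp (21.0%) at Ccnb2, and highest folds of 3.34 and 2.86. After EPZ5676, 848 bp were listed on Cdk1 and none on either cyclin B gene.

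The Aurora kinase genes were covered over similar shares and unequal lengths. Aurka (chromosome 2, 172356190 to 172370886) had 10058 bp (68.4%) and Aurkb 4328 bp (71.6%), and only Aurka had EPZ5676 coverage, of 398 bp. Plk1, the polo-like kinase gene, had 3933 bp (37.6%). The checkpoint genes Bub1b and Bub1 had long spans and single peaks near their starts, of 7177 bp (16.5%) and 3491 bp (11.0%). Mki67, which encodes the proliferation marker Ki-67 (chromosome 7, 135689784 to 135716450), had 1 control peak of 7015 bp (26.3%) with the highest fold of the 42 genes, 5.82, and 932 bp after EPZ5676.

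Set side by side, the phase classes overlapped in coverage. The median share of the span covered in the control was 40.3% for G1 genes (20, Myc at 0 included), 33.7% for S genes and 37.6% for mitotic genes. Single genes ran from 0 to 92.3% in G1, from 12.0 to 58.4% in S and from 11.0 to 71.6% in mitosis. The order of the medians was not stable. With control peaks held to the lowest −log10 p among EPZ5676 peaks, the G1 median was 25.8%, below the 28.1% of S genes. An EPZ5676 peak was listed on 2 of 19 control-marked G1 genes, 1 of 12 S genes and 3 of 9 mitotic genes (background 19.3%). With a −log10 q of at least 2, no gene of any class had one. These differences between classes were not tested.

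**Figure D2:**
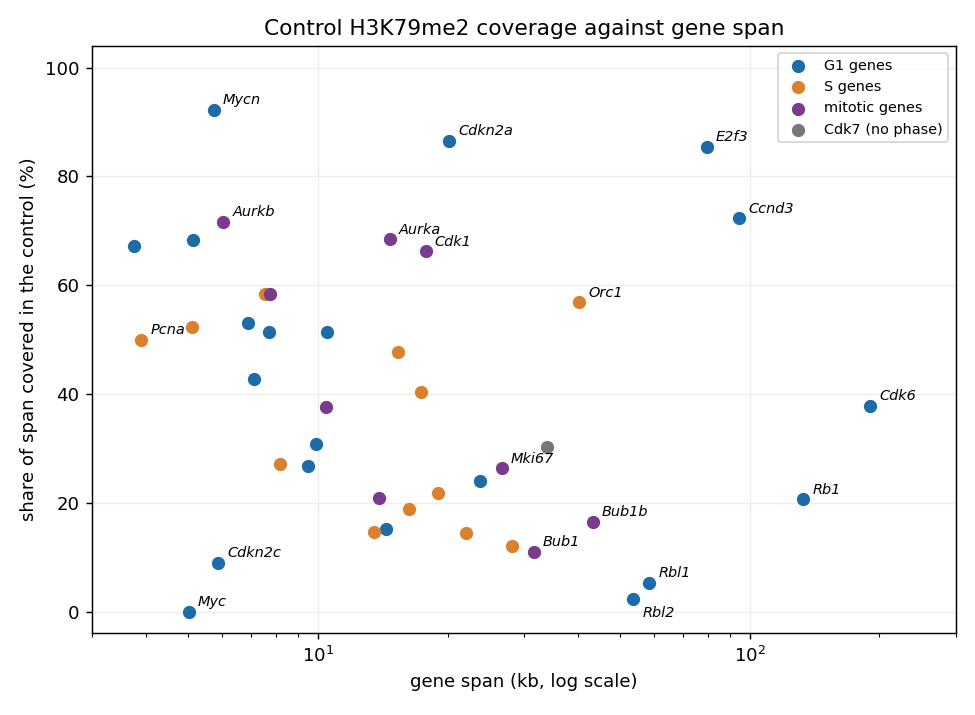
Share of each gene span covered by control H3K79me2 peaks (%) against the length of the span (kb, log scale), 1 point per gene, coloured by phase class. Short genes spread from 0 (Myc) to 92.3% (Mycn); of the genes over 50 kb, E2f3 and Ccnd3 lie above 70% and Rbl1 and Rbl2 below 6%.

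Longer genes had more bases covered and a smaller share. Across the 41 marked genes, Spearman's rho between covered bases and span was 0.55 and that between covered share and span −0.34, with 0.61 and −0.33 over the 11525 control-marked protein-coding genes. The points share 1 peak list, and a long span has room for more peaks. The genes of 30 kb and over had a median covered length of 16593 bp (all control-marked genes of that length 16103 bp), those of 10 to 30 kb 4752 bp (5468 bp) and those under 10 kb 3051 bp (2267 bp).

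The control domains began close behind the start of transcription. Of the 34 genes with a start in the table, 33 had a control peak within the first 3000 bp of the gene (background 92% of control-marked genes with a start), and Cdkn2c was the exception. The start base itself lay inside a peak in 3 of the 34, Mycn, Ccnb2 and Cdc6 (background 11.7%), and 7 of the 34 had a peak in the window from 250 bp before to 50 bp after the start (background 16.4%). Among the peaks that touch the gene span, the one nearest to the start began at a median of 159 bp after it and ended at a median of 4186 bp, with 374 and 4977 bp over the 9334 control-marked protein-coding genes with a start. At Cdk1 the peak began 8 bp after the start, at Mcm5 41 bp, at Cdk4 and E2f1 44 bp, and at Mcm3 56 bp.

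By class, the first 3000 bp were most fully covered in mitotic genes, with a median of 95.1%, against 92.7% in S genes, 84.9% in G1 genes and 81.1% in all control-marked genes. In the bin centred 300 bp after the start, all 8 mitotic genes were fully covered (mean 100%), with means of 80.0% in S genes, 43.5% in G1 genes and 38.9% in all control-marked genes. Mitotic and S genes were alike in the bin centred at 100 bp (41.2% and 40.7%) and in that at 700 bp (100% in both). Further in the order changed. In the bin centred 14900 bp after the start the means were 0% in mitotic genes, 10.0% in S genes, 33.3% in G1 genes and 29.3% in all control-marked genes. Several spans end before that distance, and a bin past the end of a span counts any control peak there. Of the G1 genes, Ccnd3, Cdk6, Cdkn2a and E2f3 were covered there within their own span, and the rest of the G1 mean lay past the end of a shorter gene. Over all genes of each class, with or without a start, the median span was 14697 bp for the 9 mitotic genes, 15771 bp for the 12 S genes and 10197 bp for the 20 G1 genes. No difference between classes in these bins was tested.

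**Figure D3:**
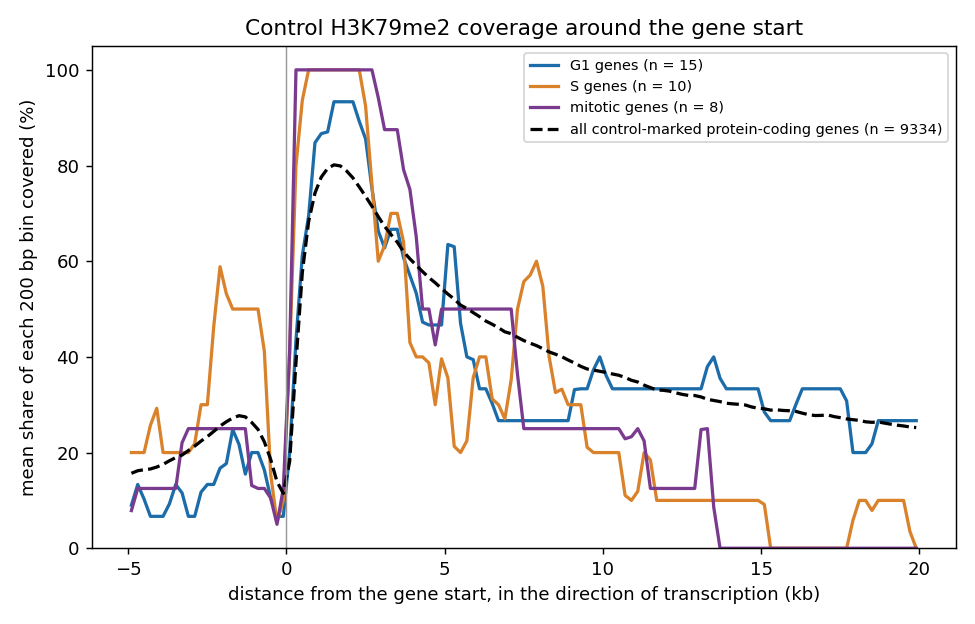
Mean share of each 200 bp bin covered by control H3K79me2 peaks (%) against distance from the most upstream start (kb, negative upstream), for 15 G1, 10 S and 8 mitotic genes and for 9334 control-marked protein-coding genes (dashed). Coverage rises within the first 1 kb in every class, reaches 100% in S and mitotic genes, and falls to 0 in mitotic genes by 14900 bp.

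Coverage before the start was counted as well. A control peak lay within 3000 bp upstream of the start in 7 of 10 S genes, 6 of 15 G1 genes and 3 of 8 mitotic genes (background 42.7%), a difference between classes that was not tested. In 4 of the 7 S genes the span of another protein-coding gene reached into that stretch: Prpf38a at Orc1, Cds2 at Pcna, Ap4m1 at Mcm7 and Wipf2 at Cdc6. The other 3 were Mcm2 (2134 bp covered), Cdt1 (1901 bp) and Mcm3 (241 bp). Over all control-marked protein-coding genes with a start, 2002 of the 3983 with an upstream peak had such a neighbour, so 4 of 7 is near the background. Of the genes with an upstream peak, 0 of 6 in G1 and 1 of 3 in mitosis had such a neighbour. For the 34 genes with a start together, the count was 5 of 16. At Aurka, 2568 bp were covered upstream, where the neighbour Cstf1 lies. The part of these neighbours in the upstream coverage was not tested.

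The 10 EPZ5676 peaks were short stretches inside the control domains. Each lay wholly within a control peak, as did 75.4% of the 5932 EPZ5676 peaks on control-marked protein-coding genes, and none lay in the span of another protein-coding gene. At Cdk1 the EPZ5676 peaks covered 3122 to 3702 bp and 6968 to 7234 bp from the start (581 and 267 bp wide), inside a control peak of 11351 bp. At Mki67, 932 bp from 2520 to 3451 bp were covered, inside a control peak of 7015 bp. Aurka was covered from 1991 to 2388 bp after the start and Orc1 from 4365 to 4557 bp. Both stretches lay in the control peak that begins next to the start.

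At E2f3 the EPZ5676 peaks were 330, 846 and 1270 bp wide and began 4185, 9182 and 13031 bp from the start, all in the first part of a control peak of 65823 bp. The widest of the 10 peaks on these genes was the one of 1270 bp (chromosome 13, 29971763 to 29973032). The EPZ5676 peaks of Cdk6 lay farther in, 40259 and 94347 bp from the start, inside control peaks of 7636 and 3534 bp. Fold enrichment of the 10 peaks ran from 2.52 to 2.87 and −log10 q from 1.16 to 1.62, where the whole EPZ5676 list had medians of 2.75 and 1.43. Of that list, 7.06% of peaks had a −log10 q of at least 2.

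**Figure D4:**
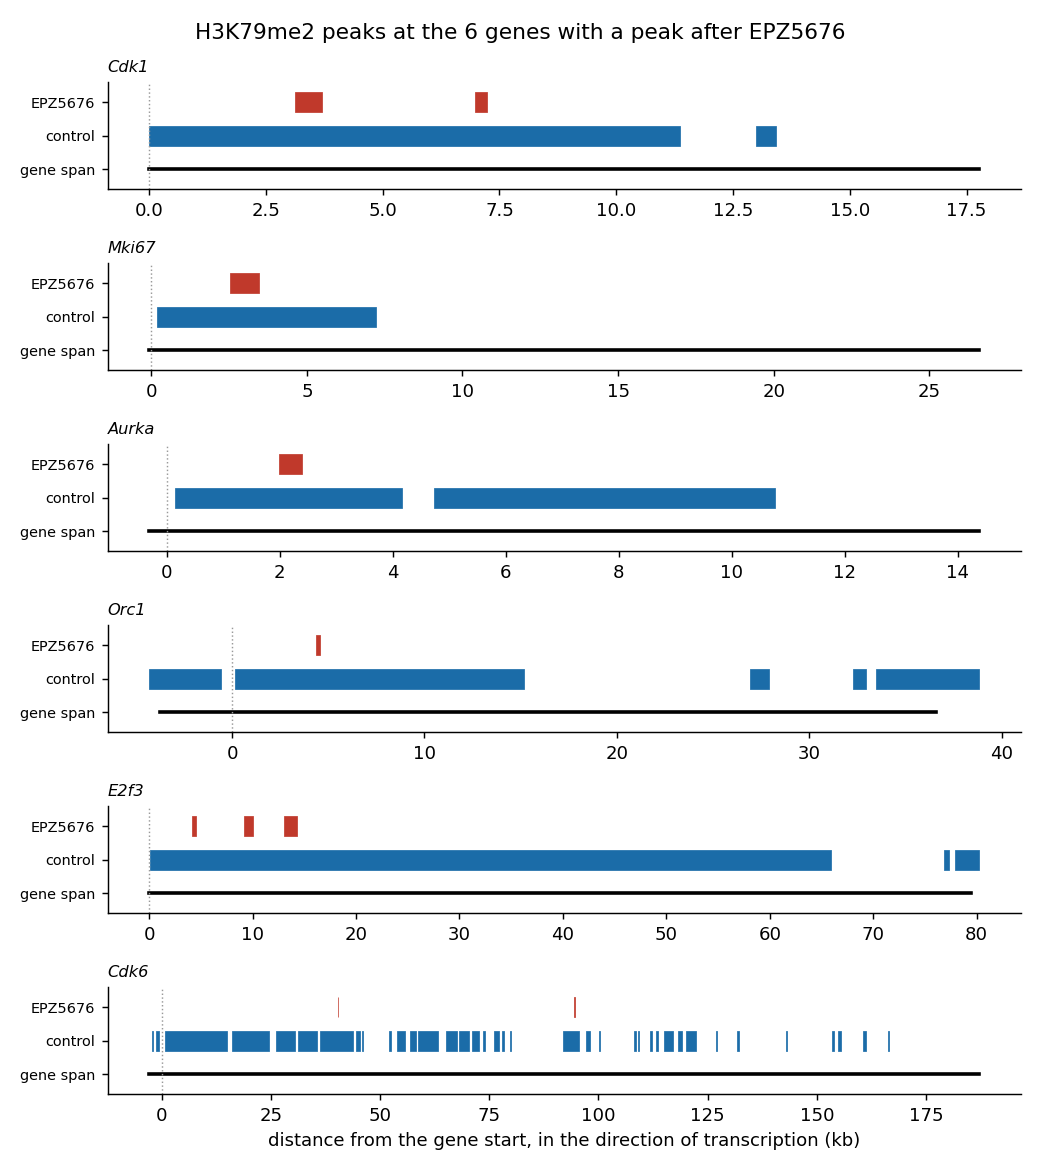
Control peaks (blue) and EPZ5676 peaks (red) over the span (black) of the 6 genes with an EPZ5676 peak, by distance from the most upstream start (dotted line) in the direction of transcription (kb, own scale per gene). Each red block sits above a blue one. Those of Mki67, Aurka, Cdk1 and Orc1 and the nearest one of E2f3 lie within 7234 bp of the start, and those of Cdk6 at 40259 bp and beyond.

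The genes with an EPZ5676 peak were among those with longer control coverage. Of the 25 genes with under 5 kb of control coverage none had an EPZ5676 peak, with 4.68% over all protein-coding genes of that coverage. Of the 11 with 5 to 20 kb 3 had one (18.6% over all genes), and of the 5 with 20 kb and over 3 had one (54.1%). Ccnd3, with 68412 bp, and Rb1, with 27491 bp, were the 2 of those 5 without one.

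A further 102 genes of the same machinery, also chosen with earlier results of these data known, were counted in the same way. Of these, 101 had a control peak (background 52.7%). The exception was Cdkn1c, the p57KIP2 gene, with no peak in either list. Their median control coverage was 4979 bp and 27.1% of the span. An EPZ5676 peak was listed on 13 of the 101 (background 19.3% of control-marked genes), with 2 of 16 G1 genes, 3 of 44 S genes and 8 of 41 mitotic genes. Lin54, of the complex that binds the CHR element, was covered over 31669 bp without and 1497 bp with EPZ5676. Anln, the anillin gene, had 8876 and 1312 bp, Kif11, a spindle motor gene, 9714 and 1019 bp, and Rpa1, of the single-strand DNA binding complex, 24996 and 991 bp. Orc4 (21568 and 658 bp), Tpx2 (12854 and 639 bp), Mad1l1 (77860 and 618 bp), Incenp (15860 and 520 bp), Ticrr (4701 and 452 bp) and Tfdp1 (29988 and 335 bp) followed. The other 3 were Ccnf, Cdc27 and Birc5. Among the 13, Kif11, Anln and Birc5 had an EPZ5676 peak with a −log10 q over 2 (2.52, 2.16 and 2.05).

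The labelled cell type was set against marker genes. All 12 germline stem cell genes were marked (background 52.7%), among them Zbtb16 over 168701 bp and Gfra1 over 96347 bp. Of 16 fibroblast genes, 9 were marked, a share near that background, between 330 and 12557 bp, while Col1a2, Col3a1, Vim, Postn, Dcn, Lum and S100a4 had no control peak. Wt1 and Amh were the 2 marked genes in a list of 10 for testis somatic cells. After EPZ5676, 4 of the 9 control-marked fibroblast genes and 2 of the 12 germline genes had a peak (background 19.3% of control-marked genes). Cell cycle genes are used by germ cells and fibroblasts alike, the labels name no step that removed the feeder cells, and the part of feeder chromatin in the peaks described here was not tested.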

How the data were processed

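H3K79me2 peaks came as 2 lists without a header, 1 per condition, each recorded under replicate 1 of its group. The inputs and the second replicates were not analysed here. The build is mm10 and the tools named are deepTools, Trimmomatic and bcl2fastq (version 2.20.0.422), per the submitters' processing notes. For the aligner, the peak caller and any pooling of replicates, details were not given in the sources used here. The deposited score, fold enrichment (a ratio of signal to background), −log10 p and −log10 q of each peak are the authors' values, named from the column layout, and served to describe and filter peaks. Control peaks reached down to a −log10 p of 2.36 and EPZ5676 peaks to 4.03. No per-sample column was left unmapped (0).

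A gene counted as marked from 1 bp of its RefSeq span under a peak. Starts came from the RefSeq promoter table (34 of 42 genes; Ccnd1, Ccne2, Ccna2, Rb1, E2f4, Myc, Mcm4 and Aurkb had none there), the most upstream where several were given. Spans of 13 genes overlap another protein-coding gene. Interval code (Python 3.11.15, pandas 2.3.3) was checked on simulated data. Members, phase classes and lists were chosen with earlier results of these data known. Genes were named by a fixed rule: all with an EPZ5676 peak or no control peak, the extremes of each phase class, and families member by member. Promoters shown had the most motif matches before the start in their class, with ties settled by longer control coverage, or were mitotic with an EPZ5676 peak. E2F matches were counted for G1 and S genes and CHR and CCAAT matches for mitotic genes; counting only matches before the start was chosen after seeing the data. Alternatives were coverage of 500 bp, a −log10 q of at least 2, a common p floor, bases of overlapping genes left out, spans extended by 5000 bp, other phase assignments and another start window.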

Additional observations from a re-analysis of the deposited data

How the results depend on the processing

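The count of control-marked genes, 41, lay between 39 and 42 under every alternative run, and 49 of 69 recomputed values were unchanged (counts within 1.5 times, other values to 3 digits). With at least 500 bp covered, 3 genes rather than 6 had both peaks (Cdk1, E2f3 and Mki67), with 1 in G1 and 0 in S. With a −log10 q of at least 2 in both lists, 0 genes had both peaks (0 in G1, 0 in S, 0 in mitosis), no ratio of covered lengths could be formed, and the median covered shares were 34.5% in G1 and 32.1% in S. With the control list at the p floor of the EPZ5676 list, the shares were 25.8% in G1 and 28.1% in S and the ratio of summed lengths was 69.3. Without bases of overlapping genes they were 37.8% and 35.3%, and the ratio was 79.95. With Ccna2 counted as mitotic and Cdk7 as G1, the shares were 37.8% (G1), 40.3% (S) and 32.3% (mitotic), and without Mki67 the mitotic share was 48.05%. With the start window from 250 bp before to 50 bp after the start, 7 rather than 33 genes had a peak in it. Beyond the alternatives' own construction, the cause of these changes was not tested. Leaving out a replicate was not possible with 1 list per condition. No paired analysis was possible because each condition has a single peak list and no test was made. Read depth is unknown, so how far it limits the EPZ5676 list could not be measured.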
